A study of Mus musculus with 25 samples.

Results

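Ion channel genes of the mouse pituitary are described here, namely the pore-forming and accessory subunits of calcium, potassium, sodium and HCN channels. They were chosen by symbol: names that begin with Cacna, Cacnb, Cacng or Kcn, or with Scn and a digit, and the genes of the HCN family. The non-coding Kcnq1ot1 and names that mark a pseudogene or an antisense copy were left out, and where a symbol had several rows the row with the highest mean was kept. Of 140 matching symbols, 120 had a mean of at least 3 on the deposited log2 scale over the 25 animals, among 19141 genes tested and 47069 in the deposited table. The symbol pattern and the minimum mean used no difference between groups, but the set was chosen with earlier results of these data known. The lowest means kept were 3.21 for Kcnh5, 3.23 for Kcne4 and 3.34 for Kcne1l, and the highest left out were 2.72 for Kcnmb1, 2.68 for Kcnk18 and 2.58 for Kcng3. Kcnk15 and Kcnk16, also left out, are listed at 0. The rule also kept 2 non-coding RNAs, Kcnmb4os1 and Kcnmb4os2, whose names mark them as antisense to the accessory subunit gene Kcnmb4. Their average differences between treatments were 0.03 and 0.09 (log2), and neither passed the test.

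Pituitaries came from hpg mice, whose gene for gonadotropin-releasing hormone (GnRH) is partly deleted, so that they lack this hormone. All 4 groups carried the deletion. Animals received 1 µg of GnRH or saline, which the labels call placebo, by intraperitoneal injection once daily over 10 days, and the gland was taken 1 h after the last dose. Among females 5 received placebo and 6 GnRH, and among males 6 received placebo and 8 GnRH, each animal with its own library and a number from 1 to 25; the series' design text gives at most 7 per condition, and the labels were followed. The sources used here give neither ages nor batches. Whole glands were sequenced in bulk, and the hormone genes of the anterior lobe were present throughout (Gh, for growth hormone, at 21.09 to 21.92).

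Ion channels set how often an endocrine cell of the pituitary fires and how much calcium enters with each action potential, and calcium triggers the release of hormone. Calcium and sodium channels drive the upstroke, voltage-gated potassium (Kv) channels and calcium-activated potassium channels end it, and inward rectifiers, two-pore leak channels and HCN channels set the resting potential and the rhythm between spikes. In gonadotropes, the cells that make luteinizing and follicle-stimulating hormone, GnRH releases calcium from internal stores, and the calcium opens potassium channels of the SK family in pulses.

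The 250 bases before the start annotated by RefSeq are shown for 3 of the genes that passed the test below. The stretch in front of a gene that rose (Kcna4) can so be read beside those of 2 that fell (Kcng4 and Kcnj2). Windows of Kcnc4 and Kcnk1, which also rose, were searched but are not shown. No window was available for Kcnk3, which rose as well. Sequences are RefSeq's, from build GRCm38.p6 (mm10), 5′ to 3′ on the strand of the gene. Capitals mark matches on either strand to the GC box GGGCGG, which reads CCGCCC where it lies on the other strand, and to the E-box CACGTG. The windows are chr2:107290339-107290588 (plus strand) for Kcna4, chr8:119635681-119635930 (minus strand) for Kcng4 and chr11:111065914-111066163 (plus strand) for Kcnj2. Gene positions given below are those of GENCODE M21, whose starts can differ from RefSeq's. For Kcna4 the GENCODE start, 107290639, lies beyond the end of the window. The Kcnc4 window, chr3:107458899-107459148, lies inside the GENCODE span of the gene.
Kcna4: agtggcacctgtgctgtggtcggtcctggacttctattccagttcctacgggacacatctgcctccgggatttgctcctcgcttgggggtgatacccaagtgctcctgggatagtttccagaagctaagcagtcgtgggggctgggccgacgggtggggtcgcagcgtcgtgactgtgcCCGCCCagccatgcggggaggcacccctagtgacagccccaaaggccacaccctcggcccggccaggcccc
Kcng4: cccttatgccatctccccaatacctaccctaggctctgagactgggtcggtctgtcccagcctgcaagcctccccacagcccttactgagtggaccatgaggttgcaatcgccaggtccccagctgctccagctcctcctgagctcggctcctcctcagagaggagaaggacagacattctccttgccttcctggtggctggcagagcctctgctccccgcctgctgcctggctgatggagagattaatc
Kcnj2: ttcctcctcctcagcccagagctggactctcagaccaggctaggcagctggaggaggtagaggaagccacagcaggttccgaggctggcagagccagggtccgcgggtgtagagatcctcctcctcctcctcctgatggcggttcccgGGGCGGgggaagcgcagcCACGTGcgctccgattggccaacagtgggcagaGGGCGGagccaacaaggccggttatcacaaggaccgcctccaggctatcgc
The Kcna4 window held 1 GC box, the Kcnj2 window held 2 GC boxes and 1 E-box, and the Kcng4 window held none of the letters searched. Of the windows not shown, that of Kcnc4 held 1 GC box and 1 TGACG, the short form of the cyclic AMP response element. That of Kcnk1 held none.

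Windows were available for 87 of the 120 genes, 118 windows in all. The full cyclic AMP response element TGACGTCA was in 0 of these 118 windows, against 1.55 percent of 32851 windows of all genes, and its shorter form TGACG was in 16.1 against 17.8 percent. The AP-1 site TGANTCA was in 3.39 percent of the channel windows (Cacng5, Kcnip3, Kcnip4 and Kcnk2) against 6.75 percent, and the EGR site GCGNGGGCG in 7.63 against 4.7 percent. The site CAAGGTCA of SF-1, a nuclear receptor of gonadotropes, was in 1.69 against 1.33 percent (Hcn2 and Kcnf1). The GC box was in 44.9 against 32.7 percent and the E-box in 5.08 against 6.02 percent. Both strands were searched, TGACG lies within the full element, and the GC box and E-box were added after the windows had been read. A match is a string of letters, and no binding was measured.

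GnRH against placebo, averaged over the sexes, uses all 25 animals and asks which channel genes differ after repeated GnRH. Of the 120 genes 6 passed (limma, adjusted p under 0.05), and all 6 encode potassium channel subunits. Potassium channel classes make up most of the 120: 35 Kv pore, 11 Kv accessory, 11 inward rectifier, 11 calcium- and sodium-activated and 9 two-pore genes. Whether potassium channels were called more often than the other channels was not tested. Kcna4, Kcnc4, Kcnk1 and Kcnk3 were higher with GnRH by 1.18- to 1.47-fold, and Kcng4 and Kcnj2 were lower, at 0.770 and 0.872 of placebo. These 6 are 5.00 percent of the channel genes, where 1.71 percent of all genes tested passed; 4 were higher, where 1.42 percent of all genes were, and 2 lower, where 0.287 percent were. At an unadjusted p under 0.05 there were 23 channel genes (19.2 percent) and 2295 of all genes (12.0 percent). The median difference of the 120 was -0.02 with 52 above 0, and that of all genes was -0.0009 with 49.4 percent above 0. Folds are on the deposited scale, which is shrunken towards each gene's mean and understates changes of genes with few reads.

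**Figure D1:**
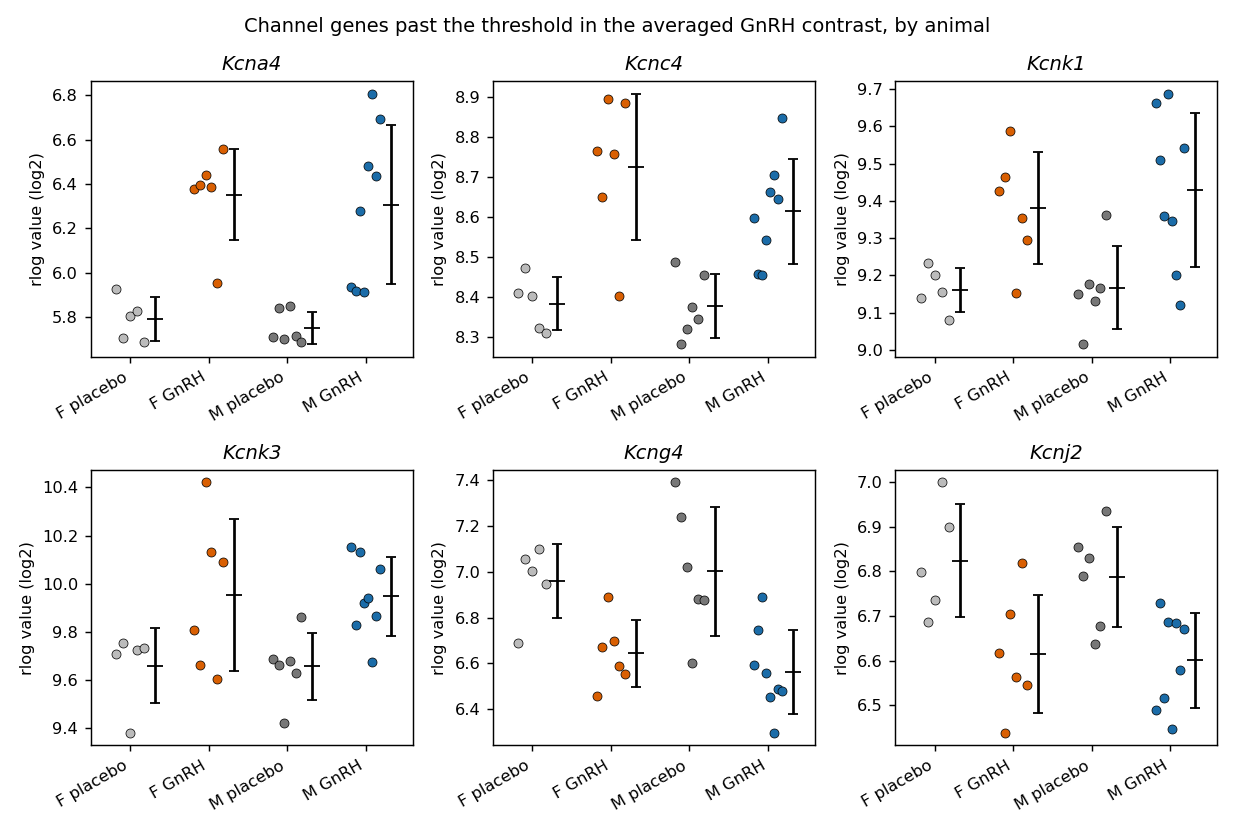
Deposited log2 (rlog) values of Kcna4, Kcnc4, Kcnk1, Kcnk3, Kcng4 and Kcnj2, 1 point per animal (F, female; M, male; 5, 6, 6 and 8 animals), with the mean and SD beside each group; the axes do not start at 0. All 14 GnRH animals lie above every placebo animal of their sex for Kcna4, while the groups overlap for the other 5 genes.

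Kcna4 encodes a Kv pore subunit that opens and inactivates rapidly and carries an A-type current, which delays firing. In placebo females its values were 5.93, 5.70, 5.81, 5.83 and 5.69, and the 6 GnRH females ran from 5.95 over a median of 6.39 to 6.56. The 6 placebo males ran from 5.69 over 5.71 to 5.85, and the 8 GnRH males from 5.91 over 6.36 to 6.81. All 6 treated females and all 8 treated males lay above every placebo animal of their sex, although GnRH female 10 (5.95) and GnRH males 18, 19 and 21 (5.94, 5.92 and 5.91) were close to the placebo range. Means were 5.79 ± 0.10 (SD, n = 5) and 6.35 ± 0.21 (SD, n = 6) in females, and 5.75 ± 0.07 (SD, n = 6) and 6.31 ± 0.36 (SD, n = 8) in males. The averaged difference was 0.56 (log2, SE 0.09, 1.47-fold, adjusted p = 0.00039 by limma). It was 0.56 in each sex, with adjusted p = 0.0188 in males and 0.0951 in females. The call in males was lost without placebo male 12 (0.0516) or 14 (0.0606), with no filter on low values (0.0670) and with only males in the fit (0.0609). The averaged call held in 25 of 25 fits that left out 1 animal. In a bulk gland a change in the number of cells of a type and a change in RNA per cell cannot be told apart. The same holds for every gene below. Kcna4 lies at chr2:107290639-107298502 on the plus strand (mm10).

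Kcnc4 encodes a Kv pore subunit that opens only at depolarized voltages and inactivates fast. Its values were 8.41, 8.47, 8.40, 8.32 and 8.31 in placebo females and 8.40 to 8.89 (median 8.76) in GnRH females. They were 8.28 to 8.49 (median 8.36) in placebo males and 8.45 to 8.85 (median 8.62) in GnRH males. Of the treated animals, 5 of 6 females and 6 of 8 males lay above every placebo animal of their sex, so the groups overlapped through a few animals. The averaged difference was 0.29 (SE 0.05, 1.22-fold, adjusted p = 0.00137 by limma), with 0.34 in females (adjusted p = 0.0827) and 0.24 in males (adjusted p = 0.159). Here too the averaged call held in 25 of 25 fits. Without GnRH female 10, the lowest treated female for Kcna4 and Kcnc4 alike, both genes also passed in females (adjusted p = 0.0168 and 0.0033). Kcnc4 lies at chr3:107438303-107459552 on the minus strand.

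Kcng4 encodes an electrically silent Kv subunit, which forms no channel alone and modifies those of other Kv subunits. Placebo females had 6.69, 7.06, 7.00, 7.10 and 6.95, and GnRH females 6.46 to 6.89 with a median of 6.63. Placebo males had 6.60 to 7.39 (median 6.95) and GnRH males 6.30 to 6.89 (median 6.52). All 14 treated animals were below the placebo mean of their sex, and 4 of 6 females and 6 of 8 males were below every placebo animal. Kcng4 fell by 0.38 on the log2 scale in the averaged contrast (SE 0.08, adjusted p = 0.00521 by limma), a call kept in 25 of 25 fits without 1 animal. It fell by 0.44 in males (adjusted p = 0.0398), and the difference was -0.32 in females (adjusted p = 0.360). The male call was lost in 13 of 25 fits, those without animals 5, 7, 12, 13, 14, 16, 17, 18, 21, 22, 23, 24 and 25, and adjusted p then reached 0.146. It was also lost with no filter (0.103), with only males in the fit (0.0931) and without GnRH males 18 and 21 together (0.127). Kcng4 lies at chr8:119623854-119635680 on the minus strand.

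Kcnk1 and Kcnk3 encode two-pore potassium channels, which carry leak current at rest; the Kcnk3 channel closes in acid. Kcnk1 was 9.14, 9.23, 9.20, 9.16 and 9.08 in placebo females, 9.15 to 9.59 (median 9.39) in GnRH females, 9.01 to 9.36 (median 9.16) in placebo males and 9.12 to 9.69 (median 9.43) in GnRH males. The groups overlapped, with 5 of 6 females and 4 of 8 males above every placebo animal. Kcnk1 rose by 0.24 (SE 0.06, adjusted p = 0.0292 by limma). Kcnk3 was 9.71, 9.75, 9.38, 9.73 and 9.73 in placebo females, 9.61 to 10.42 (median 9.95) in GnRH females, 9.42 to 9.86 (median 9.67) in placebo males and 9.68 to 10.15 (median 9.93) in GnRH males. Above every placebo animal were 4 of 6 females and 6 of 8 males. Kcnk3 rose by 0.29 (SE 0.08, adjusted p = 0.0435 by limma). Within a sex neither passed (adjusted p of 0.194 to 0.444), although the differences were 0.22 and 0.26 for Kcnk1 and 0.29 and 0.29 for Kcnk3 in females and males.

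Both two-pore calls lay near the threshold and were lost when any of several animals was left out alone. Kcnk1 missed the threshold without animal 1, 4, 5, 6, 7, 8 or 13, where adjusted p reached 0.0638. Kcnk3 missed it in 17 of 25 fits, those without animals 1, 3, 4, 5, 8, 9, 11, 12, 13, 14, 15, 16, 18, 20, 21, 22 and 25, where adjusted p reached 0.117. Kcnk1 (chr8:125995170-126030685, plus strand) shares 1438 bases of its annotated span, introns included, with Gm45875, an antisense gene. Kcnk3 (chr5:30588170-30625271, plus strand) shares 450 bases of its span with Gm9899 on the opposite strand. How much of this lies in exons was not computed. The sources used here do not give the strand setting of the counting, so reads in any shared exons cannot be told apart. Kcnk6, a further two-pore channel, had a difference of 0.22 (adjusted p = 0.0862). It ran from 7.79 to 8.01 in placebo females, 8.00 to 8.28 in GnRH females, 7.53 to 7.97 in placebo males and 7.64 to 8.26 in GnRH males. With 5 of 6 females and 4 of 8 males above every placebo animal, its groups overlapped. Of this class, the other 6 of 9 genes lay between -0.13 (Kcnk10) and 0.03. Kcnk2, a leak channel opened by stretch and with the highest level per length of this class, had -0.05 (SE 0.04, adjusted p = 0.681).

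Kcnj2 encodes a strong inward rectifier, a potassium channel that holds cells near rest. It was 6.80, 6.69, 6.74, 7.00 and 6.90 in placebo females, and 6.44 to 6.82 (median 6.59) in GnRH females. Placebo males had 6.64 to 6.93 (median 6.81) and GnRH males 6.45 to 6.73 (median 6.62). All 14 treated animals were below the placebo mean of their sex, and 4 of 6 females and 4 of 8 males were below every placebo animal. The gene fell by 0.20 (SE 0.05, adjusted p = 0.0323 by limma). The averaged call was lost in 12 of 25 fits, without animals 4, 5, 6, 7, 11, 12, 13, 14, 17, 18, 20 and 22, and adjusted p then reached 0.0843. Kcnj2 lies at chr11:111066164-111076821 on the plus strand.

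The other 10 inward rectifiers did not pass, and 3 of the 11 had positive differences. Kcnj4, of the same strongly rectifying family as Kcnj2, had 0.23 (SE 0.06, adjusted p = 0.0631), with 4 of 6 females and 5 of 8 males above every placebo animal. It was 4.84 to 5.05 in placebo females, 4.87 to 5.45 in GnRH females, 4.98 to 5.16 in placebo males and 5.00 to 5.50 in GnRH males. Kcnj11, the pore of the ATP-sensitive potassium channel, had -0.26 (SE 0.08, adjusted p = 0.118), while Abcc8, the regulatory subunit it pairs with in endocrine cells, had -0.08 and did not pass. Kcnj10, a channel of glia, had -0.21 (adjusted p = 0.230), and Kcnj8, a channel of vascular mural cells, had 0.13 (adjusted p = 0.115). Kcnj3 and Kcnj6, pores of the channel opened by G proteins, had -0.03 and -0.11 (adjusted p = 0.900 and 0.646).

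**Figure D2:**
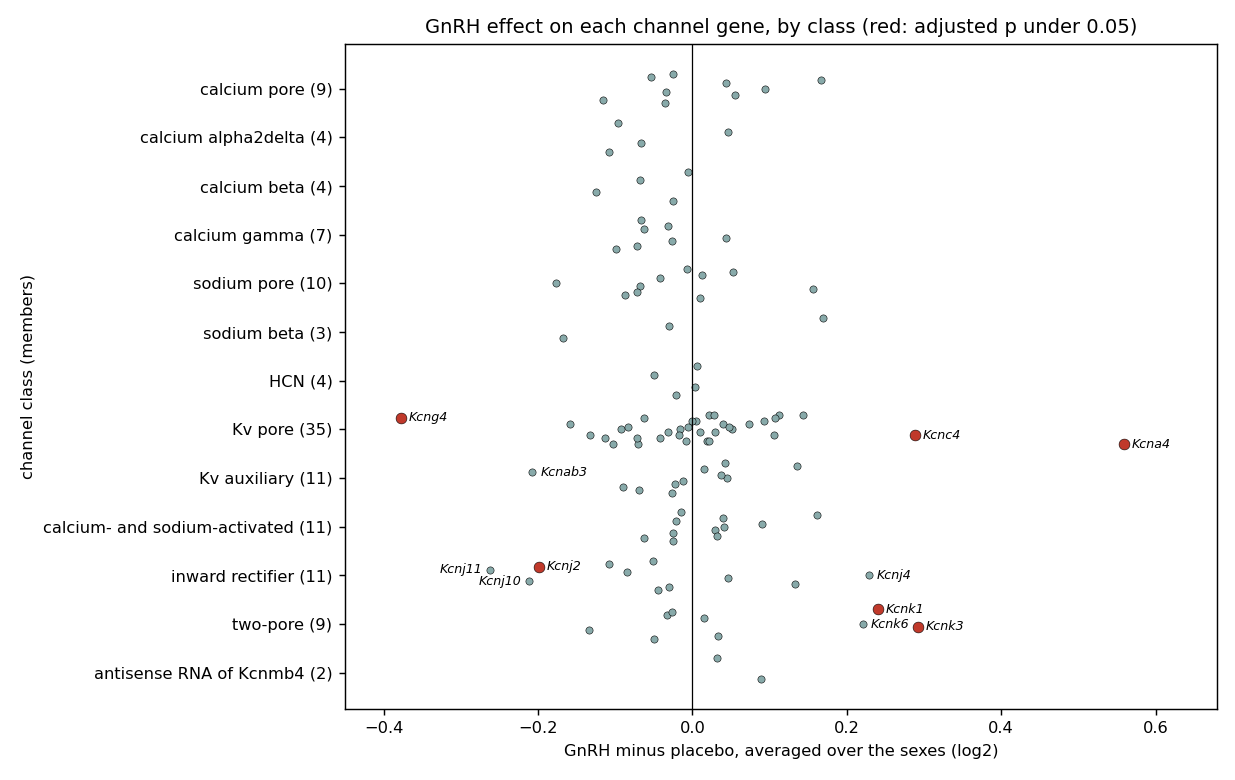
GnRH minus placebo difference (log2), averaged over the sexes, for each of 120 genes, by channel class with the number of genes in brackets; red points passed the threshold. The 6 red points lie in the Kv pore, inward rectifier and two-pore classes, and the largest differences are 0.56 (Kcna4) and -0.38 (Kcng4).

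The Kv pore subunits were the largest class, and 3 of 35 passed, 2 higher and 1 lower, with a median of 0.004 and 18 above 0. Kcnh2 and Kcnh6, of the ERG family that sets the resting potential of lactotropes, had -0.08 and -0.10 (adjusted p = 0.349 and 0.651). Kcnq3, a subunit of the M channel, which receptors coupled to Gq close, had 0.11 (adjusted p = 0.677). Of 11 Kv accessory genes 0 passed by limma, with 3 at an unadjusted p under 0.05. They ran from -0.21 for Kcnab3, a cytoplasmic beta subunit (adjusted p = 0.108), to 0.14 for Kcnip3, a calcium-binding partner of Kv channels (adjusted p = 0.248). In males 7 of 8 treated animals had Kcnab3 below every placebo male, a difference of -0.31 (adjusted p = 0.121).

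Among the 11 calcium- and sodium-activated potassium channel genes 0 passed by limma and 1 had an unadjusted p under 0.05. That gene was Kcnt1, the pore opened by sodium, with 0.16 (SE 0.05, adjusted p = 0.110). Placebo females had Kcnt1 at 10.38, 10.60, 10.35, 10.38 and 10.34 and GnRH females at 10.48 to 10.81, a difference of 0.27 (adjusted p = 0.169), against 0.05 in males. Kcnn2 and Kcnn3, the SK channels opened by calcium, had 0.04 (SE 0.08) and -0.06 (SE 0.09). Kcnma1, the BK channel opened by calcium and voltage, had -0.01 (SE 0.07). The adjusted p of these 3 was 0.875, 0.819 and 0.957.

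No subunit of the calcium channels passed by limma in any contrast. Of the 9 pores 1 had an unadjusted p under 0.05 in the averaged contrast, Cacna1f, an L-type pore known from retina, with 0.17 (adjusted p = 0.210). The L-type pores Cacna1c and Cacna1d, the main route of calcium entry in endocrine pituitary cells, had 0.04 (SE 0.04, adjusted p = 0.730) and -0.04 (SE 0.04, adjusted p = 0.776). Cacna1d was 11.51 to 11.68 in placebo females and 11.48 to 11.64 in GnRH females, and 11.50 to 11.74 and 11.36 to 11.77 in males, so the groups overlapped widely. The T-type pores Cacna1g and Cacna1h, which open near rest, had -0.12 (SE 0.08) and 0.09 (SE 0.07), and Cacna1a and Cacna1b, the P/Q- and N-type pores of nerve endings, had -0.03 and 0.06.

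Of the accessory calcium channel genes, the 4 beta genes all had negative averaged differences, from -0.12 (Cacnb2, SE 0.05, adjusted p = 0.286) to -0.01 (Cacnb1). Beta subunits bring the pore to the membrane. The 4 alpha2delta genes, which anchor the pore from outside, ran from -0.11 (Cacna2d4) to 0.05 (Cacna2d3), with Cacna2d1 at -0.10 (adjusted p = 0.505). The 7 gamma genes, several of which act on glutamate receptors, ran from -0.10 (Cacng5) to 0.04 (Cacng6) with 1 above 0. Across these 3 classes 1 gene, Cacnb2, had an unadjusted p under 0.05.

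The 10 sodium channel pores did not pass either, and 0 had an unadjusted p under 0.05 in the averaged contrast. Scn8a, the sodium pore with the highest level per length here, had 0.05 (SE 0.06), Scn2a 0.01 (SE 0.07), Scn3a -0.07 (SE 0.05) and Scn9a -0.07 (SE 0.06). Scn2b, a beta subunit that tunes gating and adhesion, had -0.17 (SE 0.05, adjusted p = 0.0898). It was 9.05 to 9.22 in placebo females, 8.71 to 9.09 in GnRH females, 8.88 to 9.27 in placebo males and 8.79 to 9.05 in GnRH males, so the groups overlapped. The difference was -0.26 in females and -0.07 in males, and the difference between the sexes did not pass (adjusted p = 0.999). Scn3b, also a beta gene, had -0.03 (adjusted p = 0.817). The 4 HCN genes, whose channels open on hyperpolarization and pace firing, did not pass by limma, with 0 at an unadjusted p under 0.05 and the smallest adjusted p at 0.792. Hcn2 had 0.004 (SE 0.04), Hcn3 -0.05 (SE 0.06) and Hcn4 -0.02 (SE 0.06).

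Within females 0 of 120 genes passed by limma, where 0.0993 percent of all genes did, and 19 channel genes (15.8 percent) had an unadjusted p under 0.05 against 9.57 percent of all genes. The smallest adjusted p was 0.0827, for Kcnc4. Within males 2 genes passed, Kcna4 higher and Kcng4 lower, which is 1.67 percent against 0.496 percent of all genes (0.449 percent higher and 0.047 percent lower). At an unadjusted p under 0.05 there were 14 channel genes (11.7 percent) and 6.42 percent of all genes. The difference of the response between males and females was tested directly: 0 of 120 genes passed by limma, as did 0 percent of all genes, and the smallest adjusted p was 0.999. At an unadjusted p under 0.05 there were 3 channel genes, 2.50 percent, a share below the 2.76 percent of all genes. For Kcna4 the response differed by -0.005 with an SE of 0.18, and for Kcng4 by -0.12 with an SE of 0.15. The median SE of this difference over the 120 genes was 0.105, so a small sex difference was not detectable.

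**Figure D3:**
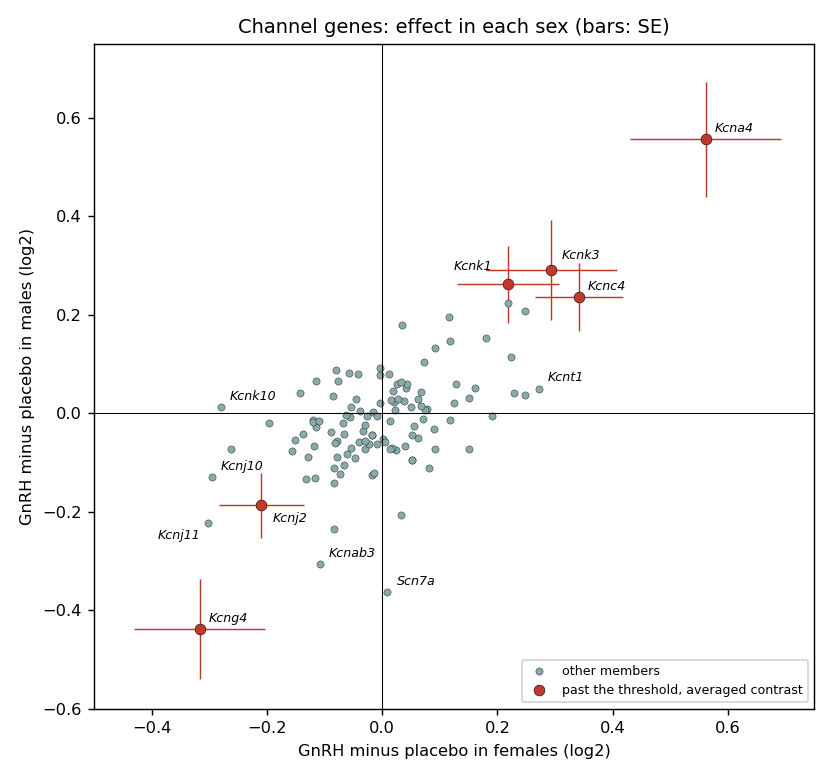
GnRH minus placebo difference (log2) in females, horizontal, against that in males, vertical, for each of 120 genes; red points with SE bars passed in the averaged contrast. The 6 red genes have the same sign in both sexes, and Scn7a differs by 0.01 in females and -0.36 in males.

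Males against females were compared within each treatment. In placebo animals 0 of 120 genes passed by limma, where 0.047 percent of all genes did, and 7 (5.83 percent) had an unadjusted p under 0.05 against 3.07 percent of all genes. Kcnk10, a leak channel opened by stretch, had the smallest p of them. It was 5.97, 6.58, 6.25, 6.55 and 6.01 in placebo females and 5.56 to 5.96 in placebo males, so the groups did not overlap, with a difference of -0.51 (SE 0.12, adjusted p = 0.208). In GnRH animals Kcnk10 was 5.78 to 6.44 in females and 5.50 to 6.00 in males, with -0.22 (adjusted p = 0.878). Scn4a and Kcng1, a muscle sodium pore and a silent Kv subunit, had -0.23 and -0.26 in placebo animals, and Kcne2, a small accessory subunit, 0.15, each with adjusted p = 0.999. Kcnt1 and Kcnh8, a slowly opening Kv pore, had 0.17 and 0.14, also with 0.999. In GnRH animals 0 of 120 genes passed by limma, where 0.0522 percent of all genes did, and 11 (9.17 percent) had an unadjusted p under 0.05 against 5.53 percent of all genes. Kcnd1, a Kv pore of the A type, was among those lower in males (-0.14, adjusted p = 0.779), and Kcnh8 (0.11), Kcnj8 (0.11) and the accessory subunit Kcnmb3 (0.07) had the smallest p among those higher.

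Levels of different genes were compared per length, as the placebo mean of 11 animals minus the log2 of the exon length in kb, with exons of GENCODE M21 for all 120 genes. Among the highest were Cacng7 (9.72), Cacnb3 (9.36), Kcnh2 (9.35), Kcnip3 (8.88) and Kcnk2 (8.85). Cacnb3 and Kcnh2 differed by less than the SD between animals of either gene. Every pore class had a gene at rank 19 of 120 or better, with Cacna1d at 7.94, Scn8a at 7.86, Hcn2 at 7.31, Kcnt1 at 7.25 and Kcnj3 at 7.22 per length. Of the 6 genes that passed, Kcnk1 (8.00, rank 8 of 120) and Kcnk3 (7.67, rank 12) were high, Kcnc4 (6.51, rank 29) and Kcng4 (5.05, rank 59) lay in between, and Kcnj2 (4.36, rank 75) and Kcna4 (3.50, rank 88) were low. The sources used here do not give the authors' gene models, so these lengths are approximate.

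**Figure D4:**
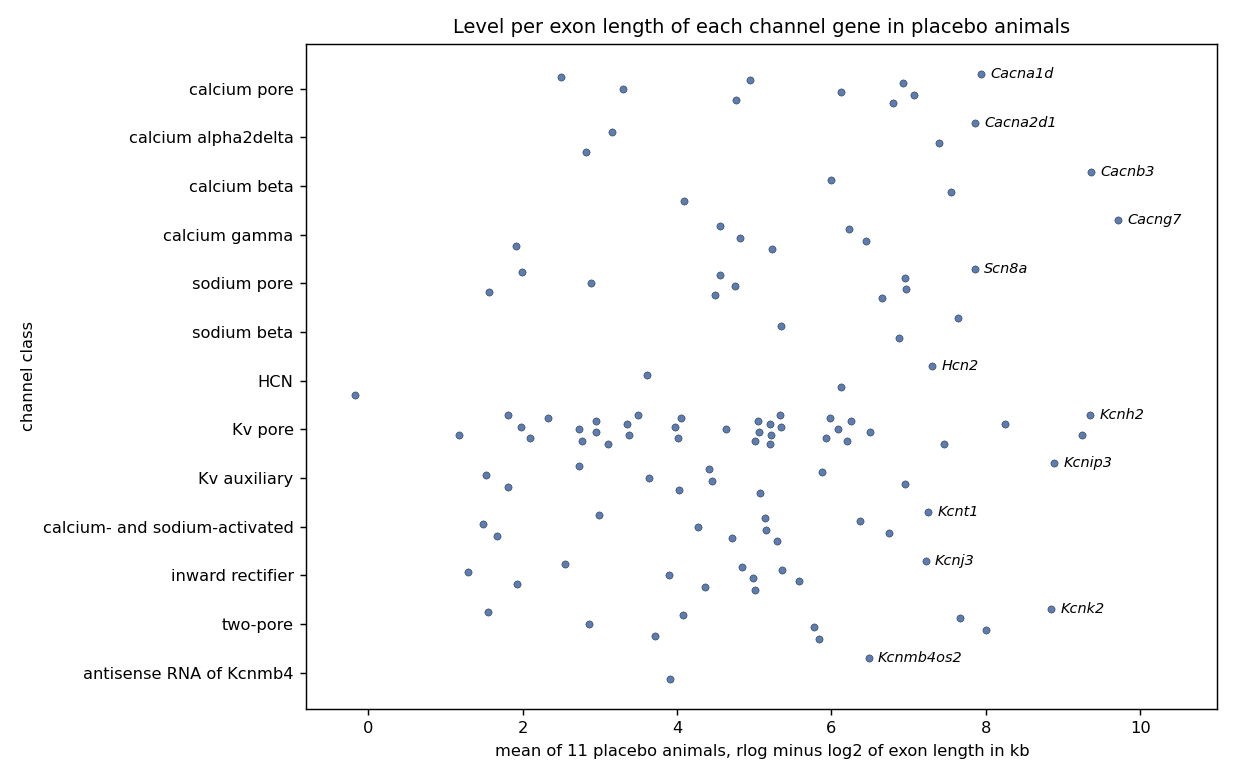
Mean of 11 placebo animals (rlog minus log2 of exon length in kb) for each of 120 genes by channel class, with the highest gene of most classes named. The highest level is 9.72 (Cacng7), and the Kv pore class spans several log2 units.

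The spread between animals of one group had a median SD of 0.132 over the 120 genes and 0.116 over all genes tested. Scn7a had the largest, 0.517. It encodes an atypical sodium channel that senses salt and marks pituicytes, the glia of the posterior lobe. Scn7a was 8.10 in placebo female 2 and 8.63 in GnRH male 19, and 9.26 to 10.47 (median 9.83) in the 23 others. Other posterior lobe markers were low in the same animals. Col25a1 was 8.00 and 8.21 against 8.97 to 9.99, and Rax 5.54 and 5.63 against 5.71 to 6.36. The hormone messages of hypothalamic axons behaved alike, with Avp at 5.75 and 5.83 against 5.95 to 7.36 and Oxt at 6.23 and 6.28 against 6.63 to 7.52. Vcan, the fourth posterior lobe marker, was 8.26 and 8.18, within the 7.71 to 8.58 of the others. Pax7, a marker of melanotropes in the intermediate lobe, was 9.37 in animal 2, below the 9.84 to 10.59 of the others, and 9.88 in animal 19, within that range. It is 1 of 3 melanotrope markers listed, and Pcsk2 and Oacyl were not read for these animals. The Scn7a difference was -0.36 in males (SE 0.25, adjusted p = 0.963) and 0.01 in females (SE 0.28, adjusted p = 0.992). Without animals 2 and 19, which were singled out from these values, 8 channel genes passed in the averaged contrast: the same 6, Kcnj4 and Kcnt1.

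**Figure D5:**
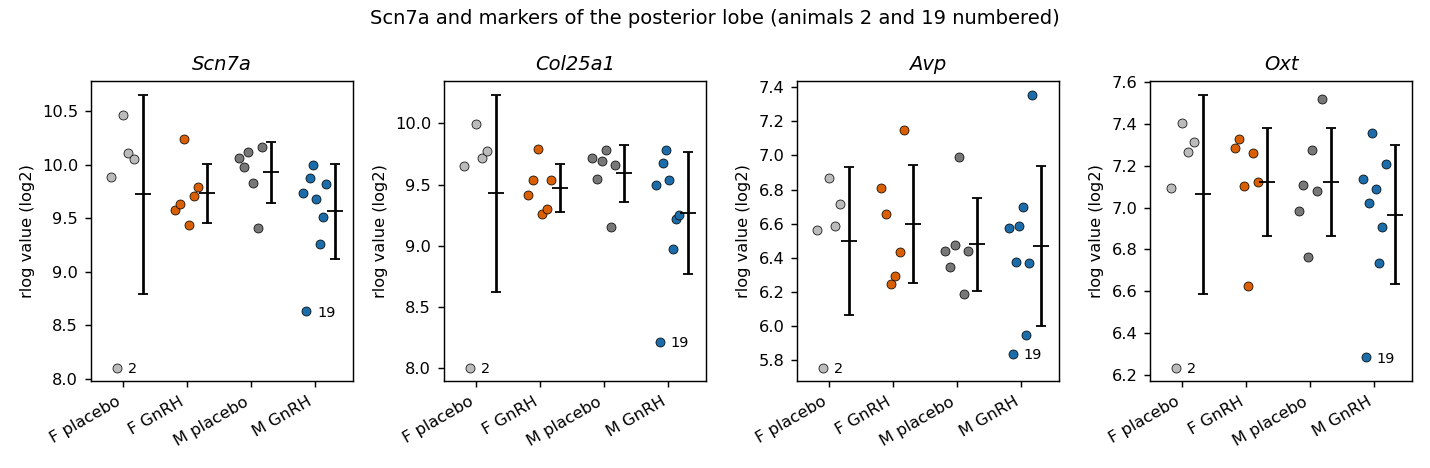
Deposited log2 (rlog) values of Scn7a and of the posterior lobe genes Col25a1, Avp and Oxt, 1 point per animal with group mean and SD; the axes do not start at 0. Animals 2 and 19, numbered, have the lowest value of their group in each panel.

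Some markers of gonadotropes and of endothelium differed with treatment as well. Of 5 gonadotrope markers 3 were higher with GnRH in the averaged contrast, Fshb (2.42), Gnrhr (0.66) and Lhb (0.38), 1 was lower, Nr5a1 (-0.38), and Cga (0.41, adjusted p = 0.0707) did not pass. The mean of the list was 10.49 to 10.93 in placebo females, 11.27 to 11.60 in GnRH females, 10.45 to 10.86 in placebo males and 11.18 to 11.70 in GnRH males. Treated and placebo animals did not overlap. That mean includes Fshb, which had the largest difference of the 5. Of 4 endothelial markers 2 were higher, Emcn (0.25) and Plvap (0.18), with list means of 9.77 to 10.01, 9.95 to 10.16, 9.80 to 9.94 and 9.81 to 10.20 in the same order. In the lists of somatotropes, lactotropes, thyrotropes, corticotropes, melanotropes, stem cells, posterior lobe, hypothalamic axons, pericytes and fibroblasts, macrophages and red cells, 0 genes passed by limma. The part of any of these cells in the differences of Kcna4, Kcnc4, Kcng4, Kcnj2, Kcnk1 and Kcnk3 was not tested.

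Genes that act on channels without being a subunit were read from a list of 27, of which 26 were tested. In the averaged contrast 2 rose, 1 fell and 23 did not pass. Rrad, a small GTPase of the RGK family that restrains calcium channels through their beta subunits, rose by 2.39 (SE 0.29, adjusted p = 1.37e-05 by limma), and Rem2, of the same family, rose by 0.30 (SE 0.07, adjusted p = 0.0166). Stac2, an adaptor that slows inactivation of L-type channels, fell by 0.27 (SE 0.06, adjusted p = 0.0238). Gem, also an RGK protein, had 0.20 (adjusted p = 0.716). The leak channel Nalcn had -0.06 (adjusted p = 0.774), and its partners Unc79 and Unc80 0.01 and -0.14. Among 25 genes of calcium handling, such as store sensors, release channels, pumps and exchangers, 0 passed by limma, and 8 had positive differences. The smallest adjusted p was 0.0989, for the sodium-calcium exchanger Slc8a2 (-0.14). Itpr1, the store channel opened by IP3, had -0.23 (SE 0.10, adjusted p = 0.354).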

How the data were processed

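Polyadenylated RNA of 25 mouse pituitaries was measured by sequencing, 1 library per animal. The deposited table holds log2 values that the authors made by the regularized-log transformation, per its name; it scales libraries and shrinks each gene towards its mean. The submitters' processing notes name bcl2fastq, STAR, featureCounts and build mm10; their versions, the annotation and the strand setting are not given in the sources used. Counts were not analysed, so depth is unknown. Library medians over the genes tested lay between 8.09 and 8.13.

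The 19141 genes whose mean reached 3 were modelled by limma 3.58.1 (R 4.3.3) with 1 mean per sex and treatment group, with 21 residual degrees of freedom and a variance trend. The 6 two-sided contrasts were adjusted by the Benjamini-Hochberg method over all genes tested, with 0.05 as the threshold. Adjusted p-values are limma's throughout. The p-values set each difference against the spread between these animals and treat the animals as independent. The labels do not say how animals were housed or processed together, so this could not be checked. Scripts were tested on simulated data. Figures were drawn with matplotlib 3.10.9.

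The members, gene lists and tests were chosen with earlier results of these data known. Named were genes past the threshold, the 3 with the smallest p of each sign in the contrasts within a sex, averaged or between sexes, and a list of channels known in pituitary excitability; named beyond this rule were Cacna1f, Cacnb1, Cacnb3, Cacng7, Kcnip3, Kcnj10, Kcnk6, Scn7a and the ends of each class, chosen after their values were seen. Some genes are not reported here. Alternatives were other filters (none, or a mean of at least 6), quantile normalization, no trend, robust moderation, library weights, single animals left out, fits within a sex, and male GnRH animals 18 and 21 or animals 2 and 19 left out. The cell marker lists were those of gonadotropes, endothelium and the 11 others given in the results.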

Additional observations from a re-analysis of the deposited data

Results flagged for a closer look

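In 172 groups of 5 to 8 animals (43 named genes in 4 groups), 7 held an animal far from the others by Dixon's criterion at the 95 percent level; chance gives about 1 group in 20. Of the genes that passed, Kcna4 was 5.95 in GnRH female 10 (nearest 6.38), and Kcnk3 was 9.38 in placebo female 3 (nearest 9.71). Placebo female 2 stood apart for Scn2b (9.05, nearest 9.17) and Kcnt1 (10.60, nearest 10.38). Cacnb2 was 10.00 in placebo male 12 (nearest 9.77), and Hcn4 was 5.96 in placebo male 16 (nearest 6.27). Scn3a was 10.03 in GnRH female 6 (nearest 10.24). The cause was not tested for any of them.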

How the results depend on the processing

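No paired analysis was possible because no replicate number is shared between groups. Kcna4, Kcnc4 and Kcng4 passed in the averaged contrast under every setting run. The averaged count of 6 was 3 with no filter on low values, which tests more genes, and 17 with library weights (10 higher, 7 lower; 4.92 percent of all genes then passed). It was 3 to 9 without single animals: 3 without animal 4, 5 or 13, and 9 without 9 or 10. In males the count of 2 was 0 with no filter, 4 with library weights, 1 without GnRH males 18 and 21, 0 with only males in the fit, and 0 to 2 without single animals. The 0 came without placebo male 12 or 14. In females the count of 0 was 2 with library weights, 1 without GnRH males 18 and 21, 1 with only females in the fit, and 0 to 2 without single animals (2 without GnRH female 10). Counts for the sex difference of the response and for both sex contrasts were 0 under every setting, without single animals included (0 to 0). With no filter Kcnk1, Kcnk3 and Kcnj2 missed the threshold (adjusted p = 0.0658, 0.115 and 0.05001), and Kcnk3 also did with no trend (0.0529). Without GnRH males 18 and 21 these 3 had 0.0660, 0.0898 and 0.0581. No call changed direction. Among 43 named genes 10 turned sign in the averaged contrast under at least 1 setting, none with a difference beyond 0.04 in size. No pseudocount applied, since the values are on a log scale. Shrinkage and the unknown depth limit what can be said of low genes such as Kcne2 and Kcnmb3.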

Other observations

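Kcna4, Fshb and Rrad are given side by side for the 14 GnRH animals. In GnRH males 18, 19, 20 and 21 Kcna4 was 5.94, 5.92, 6.28 and 5.91, where Fshb was 11.82, 11.69, 11.30 and 11.74. In GnRH males 22, 23, 24 and 25 Kcna4 was 6.48, 6.81, 6.44 and 6.69, where Fshb was 12.55, 12.61, 12.53 and 12.86. Rrad took another order, with 11.48, 8.42, 10.32 and 11.40 in animals 18, 19, 20 and 21 and 8.52, 9.06, 8.91 and 9.49 in animals 22, 23, 24 and 25. In GnRH females 6, 7, 8, 9, 10 and 11 Kcna4 was 6.38, 6.396, 6.44, 6.39, 5.95 and 6.56, where Fshb was 12.38, 12.41, 11.29, 11.66, 11.13 and 12.17 and Rrad was 9.91, 9.75, 10.31, 9.08, 8.15 and 9.49. Female 10 was the lowest of the 6 in each, whereas female 8, next lowest in Fshb, had the highest Rrad and the next to highest Kcna4. Kcna4 was picked from the genes that passed, and these did not all take its order. Kcnc4 ran from 8.45 to 8.60 in GnRH males 18 to 21 and from 8.65 to 8.85 in 22 to 25. Kcnk1 ran from 9.36 to 9.69 in GnRH males 18 to 21 and from 9.12 to 9.54 in 22 to 25. Kcng4, Kcnj2 and Kcnk3 are not set out here. All these genes were set side by side after their values were seen, and no relation between them was tested.

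Over the 120 channel genes, GnRH female 9 held the highest value of all 25 animals in 19 and the lowest in 6. GnRH males 22 and 25 held the highest value in 0 genes. Without animal 9 the averaged contrast had 9 channel genes past the threshold, with Kcnj4, Kcnj11 and Scn2b among those added and Kcnk3 lost.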
